A study of Homo sapiens with 8 samples.

Results

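The genes described here are 40 lysosome genes, a set of acid hydrolases, lysosomal membrane proteins and the transcription factors known to control them. They were taken from a named list, which was chosen with earlier results of these data known. Setting these genes against all genes is therefore a description and no test. Each gene was read from the probe set of highest mean signal among those annotated to it alone. All 40 had such a probe set, out of 17958 genes measured in this way, and 39 of them were among the 12570 genes whose mean signal passed a filter on low values. SGSH, a sulfamidase that degrades heparan sulfate, lay under the filter, with a mean between 3.655 and 3.85 on the log2 scale in every group, and was not tested.

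Transcript levels were measured on 8 Affymetrix arrays in HEL, a human erythroleukaemia cell line that carries an activated JAK2 kinase. Cells were harvested after 48 h with both agents together, with 0.5 µM LY2784544 (an inhibitor of JAK2), with 20 µM GRN163L (an oligonucleotide inhibitor of telomerase) or with only DMSO as the control. There were 2 experiments, and each gave 1 array per treatment, so every group held 2 arrays of 1 cell line. The doses within the combination are not restated in the labels, and reading it against the single agents takes them to be equal.

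Values are log2 RMA signals, so that a difference of 1 is a doubling, and pairs of values are given in the order experiment 1, experiment 2. The test was limma, a linear model fitted to all tested genes, and a call needs a p below 0.05 after Benjamini-Hochberg adjustment over them. The main fit left the experiment out. Calls with the experiment as a block in the model are given where they changed the count of called members. Signals of different probe sets depend on their probes, so levels are compared between arrays and not between genes. In a population of cells, fewer cells with a transcript and less transcript in each cell cannot be told apart. Erythroid and megakaryocytic markers were present as HEL cells are known to have them: HBE1 lay between 12.25 and 12.94 and ITGA2B between 11.13 and 11.46. Of 14 erythroid markers, 8 had a probe set annotated to them alone, and these 8 passed the filter. Of 12 megakaryocyte markers, 10 had one and 9 passed, while VWF, between 3.68 and 4.49, did not. Of 11 monocyte and macrophage markers measured, 5 lay under the filter level of 4.37 on all 8 arrays (CD14, CD163, MRC1, S100A8 and VSIG4), while LYZ lay between 10.26 and 10.69.

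Lysosomes degrade proteins, glycans and lipids delivered by endocytosis and autophagy. Their hydrolases work at acid pH, and inherited loss of single enzymes causes storage diseases. The transcription factors TFEB, TFE3 and MITF bind E-box letters in the promoters of many of these genes, and nutrient signalling through mTORC1 on the lysosomal surface holds TFEB and TFE3 in the cytoplasm by phosphorylation.

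LY2784544 against control asks how the genes respond to inhibition of JAK2. Most lysosome genes had a higher mean signal with LY2784544, with CTSA, CTSD, MCOLN1, IDUA and NEU1 furthest up, but none of these differences passed the test. The single call was SCARB2, which fell. The median difference over the 39 tested members was 0.18, against -0.04 over all 12570 genes, and it was 0.24 in experiment 1 and 0.20 in experiment 2. Of the members, 30 lay above and 9 below their control mean, where 43.3% of all genes tested lay above it and 56.0% below. In both experiments separately, 23 members were higher and 6 lower, against 24.9% and 35.7% of all genes. Of 39 members, 1 was called, which is 2.56%, against 1.27% of all genes tested in either direction and 0.883% lower. At an unadjusted p below 0.05 there were 8 higher members (CTSA, CTSD, HEXA, NEU1, TPP1, MCOLN1, IDUA and MITF) and 2 lower (CTSH and SCARB2), against 4.33% higher and 8.85% lower among all genes. Setting all arrays to a common median moves LY2784544 against control by 0.103 on the log2 scale, alike for every gene. The median of the members was then 0.283 and that of all genes 0.0625.

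**Figure D1:**
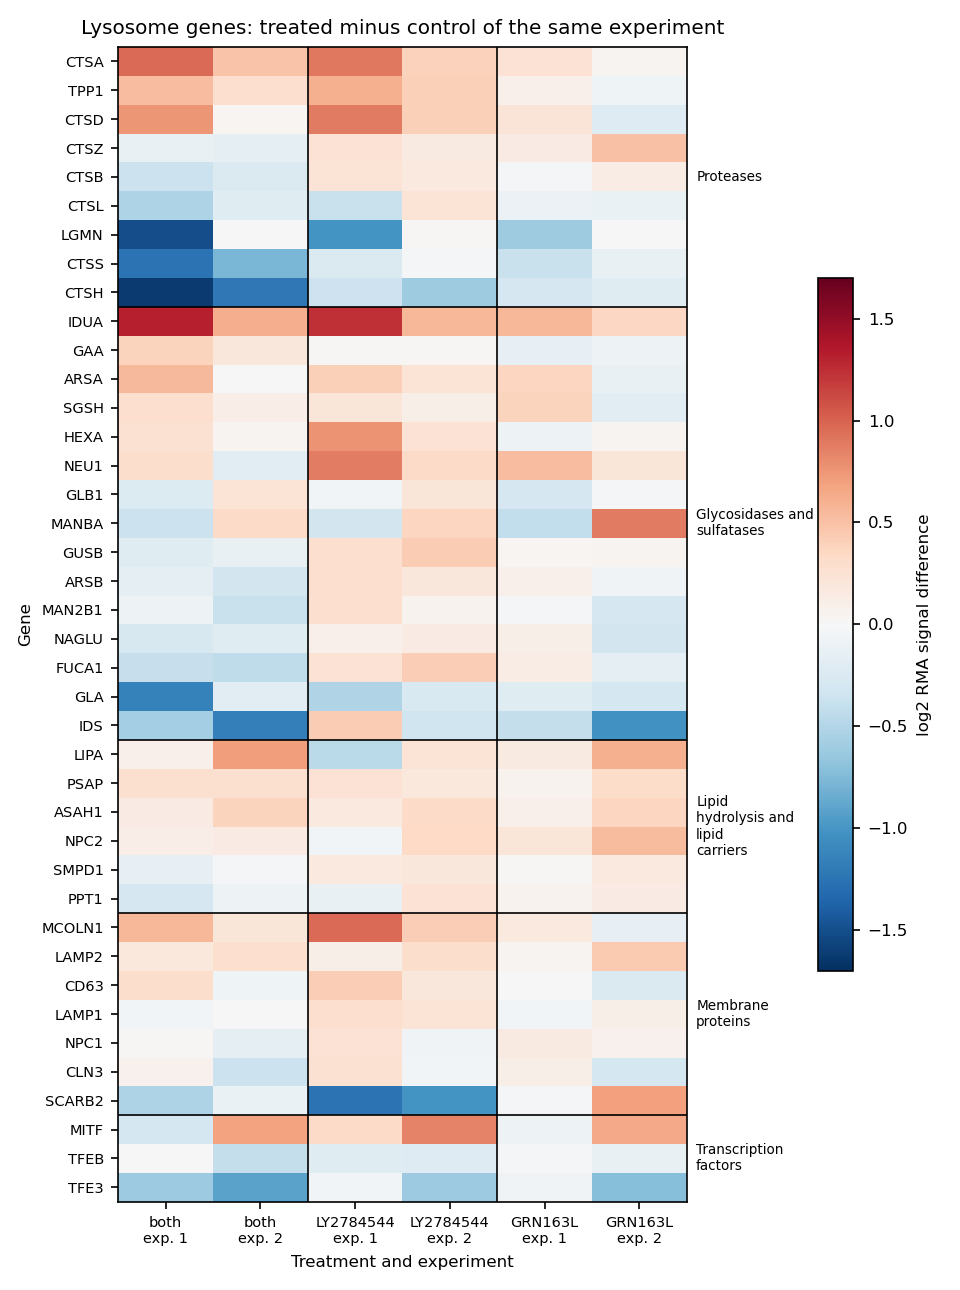
Each cell is the log2 RMA signal of a treated array minus that of the control array of the same experiment, for all 40 lysosome genes (rows, grouped by role) and the 6 treated arrays (columns: both agents, LY2784544, GRN163L, experiments 1 and 2). Red is higher and blue lower than control. CTSA, TPP1, IDUA and MCOLN1 are red in the 4 columns with LY2784544, and IDUA is also red with GRN163L. The CTSH and CTSS rows are darkest blue with both agents, and the SCARB2 row with LY2784544 alone.

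Among the proteases, CTSA, a carboxypeptidase that also protects the sialidase NEU1 and the galactosidase GLB1 in a complex, had 11.49 and 11.13 with LY2784544, against 10.60 and 10.74 in control. Both treated arrays lay above both controls, and the difference of 0.64 (SE 0.19) was not called (limma adjusted p = 0.17). A probe set annotated to CTSA and NEURL2 together differed by 0.695. CTSD, the main aspartic protease, had 10.98 and 10.69 with LY2784544 and 10.10 and 10.29 in control (0.64, SE 0.22, limma adjusted p = 0.233). TPP1, a tripeptidyl peptidase, had 10.19 and 9.97 with LY2784544, against 9.59 and 9.57 in control (0.50, SE 0.17, limma adjusted p = 0.23). Both LY2784544 arrays lay above both controls in these 3 of 9 proteases and below both in 2, CTSH and CTSS. Over all 39 members this held for 16 above and 5 below, against 17.0% and 25.2% of all genes tested. The other 6 proteases differed by between -0.495 (LGMN) and 0.20 (CTSZ), and CTSB, a cysteine protease, was at 0.195.

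Of 14 tested glycosidases and sulfatases, 13 had a higher mean with LY2784544, with a median of 0.203, and none was called. IDUA, which removes iduronic acid from dermatan and heparan sulfate, had 8.51 and 7.87 with LY2784544, against 7.27 and 7.30 in control (0.905, SE 0.27, limma adjusted p = 0.173). It was the furthest above control of the 39 members, and its difference was 1.24 in experiment 1 and 0.57 in experiment 2. A probe set annotated to IDUA and SLC26A1 together differed by 0.035. NEU1, the lysosomal sialidase, had 9.11 and 8.51 with LY2784544 and 8.24 and 8.19 in control (0.595, SE 0.26, limma adjusted p = 0.368). Probe sets annotated to NEU1 and SLC44A4 together went the other way, by -1.02, and 2 further probe sets of NEU1 alone carried identical values and lay above control on both arrays. HEXA, a subunit of the enzyme that degrades gangliosides, differed by 0.505 and GUSB, a glucuronidase, by 0.36. The exception was GLA, which degrades globotriaosylceramide, at -0.385.

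Of the 6 genes of lipid breakdown and transport, 5 had a higher mean with LY2784544, between 0.055 for PPT1, a thioesterase, and 0.25 for ASAH1, the acid ceramidase. PSAP, the precursor of the saposin activators, was at 0.215, SMPD1, the acid sphingomyelinase, at 0.18 and NPC2, a cholesterol carrier, at 0.145. LIPA, the lipase of cholesteryl esters, was at -0.115, with -0.46 in experiment 1 and 0.23 in experiment 2.

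Among the 7 membrane proteins, MCOLN1, the lysosomal calcium channel TRPML1, had 8.84 and 8.55 with LY2784544 and 7.88 and 8.13 in control (0.69, SE 0.17). It had the smallest p of the members above control (limma adjusted p = 0.112), and the groups did not overlap. SCARB2, which encodes LIMP-2, the receptor that carries glucocerebrosidase to lysosomes, had 4.18 and 3.94 with LY2784544, against 5.44 and 4.96 in control. It fell by 1.14 on the log2 scale (SE 0.20, limma adjusted p = 0.0359), and both LY2784544 arrays lay under the filter level of 4.37. The fall was not called without either control array, either LY2784544 array or either GRN163L array (adjusted p = 0.0693 to 0.191), nor with the arrays set to a common median (adjusted p = 0.0555). The other membrane proteins were at 0.305 for CD63, a tetraspanin of late endosomes, 0.26 for LAMP1 and 0.20 for LAMP2, the abundant glycoproteins of the lysosomal membrane, 0.11 for CLN3 and 0.09 for NPC1, the cholesterol exporter.

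**Figure D2:**
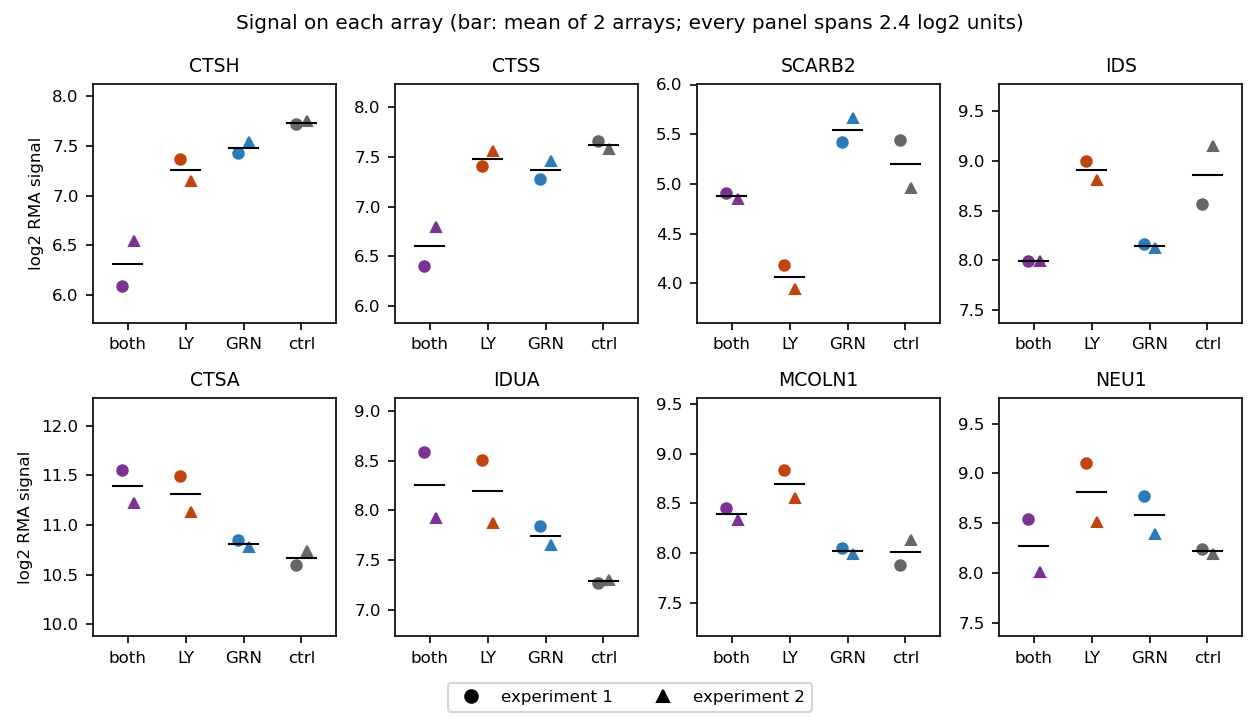
Log2 RMA signal of CTSH, CTSS, SCARB2, IDS, CTSA, IDUA, MCOLN1 and NEU1 on each array (circles: experiment 1, triangles: experiment 2, bars: mean of 2 arrays), with both agents, LY2784544 (LY), GRN163L (GRN) and control (ctrl). Every panel spans the same range of log2 units. CTSH and CTSS are lowest with both agents, SCARB2 is lowest with LY2784544, and IDS is lowest with both agents and with GRN163L. CTSA, IDUA and MCOLN1 lie above control in both groups that had LY2784544. CTSA and IDUA lie above control with GRN163L as well.

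The sequences that follow show the E-box letters CACGTG, which TFEB, TFE3 and MITF bind, in promoters of members. They were looked for with the differences of these genes known, so the values of the genes that hold them are a description and support nothing. The promoter windows run from 250 bases before to 50 after a transcription start and come from RefSeq (GRCh38.p14). They matched 29 of the 40 members by symbol. CACGTG, which reads the same on both strands, stood in a window of 9 members (ARSB, CD63, CLN3, CTSA, CTSD, GAA, LAMP1, MCOLN1 and NEU1). These are 31.0% of the 29, against 8.77% of 27305 genes in the same table. Counted by window, 10 of 46 windows of members held CACGTG, against 7.26% of all 35116 windows. The longer TCACGTGA, which contains it, stood in 5 members (17.2%) and in 1.18% of all genes. The stretches are printed 5′ to 3′ on the gene's strand with the E-box in capitals and lie before the start.
CTSA (chr20:45891295-45891330, + strand): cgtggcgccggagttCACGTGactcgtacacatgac
CTSD (chr11:1763954-1763989, - strand): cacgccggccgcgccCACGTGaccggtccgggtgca
MCOLN1 (chr19:7522595-7522623, + strand): tctgggctaccgggtCACGTGaccgaggc
NEU1 (chr6:31862927-31862962, - strand): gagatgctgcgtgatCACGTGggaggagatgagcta
LAMP1 (chr13:113297196-113297231, + strand): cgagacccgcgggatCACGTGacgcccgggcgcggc
GAA (chr17:80101490-80101525, + strand): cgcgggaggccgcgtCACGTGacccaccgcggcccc

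Counted from the start, the centre of the printed E-box lay at base -22 in CTSA, -44 in CTSD, -11 in MCOLN1, -123 in NEU1, -25 in LAMP1 and -73 in GAA. CTSA, MCOLN1, LAMP1 and GAA held the letters more than once, and 1 copy of each is shown. With LY2784544 the 9 members with the letters ranged from 0.02 for GAA to 0.69 for MCOLN1, with a median of 0.305. The 20 members whose windows lacked the letters had a median of 0.085, with 13 above and 7 below, and ranged from -1.14 (SCARB2) to 0.905 (IDUA). The 10 tested members with no window in the table had a median of 0.198. With both agents the medians were 0.115 for the 9, -0.178 for the 20 and 0.065 for the 10. For both agents against LY2784544 they were -0.255, -0.275 and -0.15, and for the departure from additivity, defined further on, -0.25, -0.265 and -0.23. Binding was not measured.

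None of TFEB, TFE3 and MITF was called in any of these comparisons. TFEB had 5.36 and 4.93 with both agents, 5.17 and 5.11 with LY2784544, 5.35 and 5.21 with GRN163L, against 5.37 and 5.33 in control. Its largest difference from control was -0.21. TFE3 had 7.48 and 7.25 with both agents, 8.06 and 7.54 with LY2784544, 8.04 and 7.44 with GRN163L, against 8.10 and 8.16 in control. Both arrays with both agents lay under both controls (-0.765, SE 0.24, limma adjusted p = 0.114). TFE3 passed the test once the experiment was a block (limma adjusted p = 0.0376). MITF had 7.69 and 7.70 with LY2784544, against 7.36 and 6.86 in control (0.585, SE 0.23, limma adjusted p = 0.309). With both agents MITF had 7.06 and 7.54 and with GRN163L 7.27 and 7.51, and both pairs overlap the controls.

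GRN163L against control asks how the genes respond to the telomerase inhibitor. No member was called by limma, as no gene of the 12570 was (0% called), and 1 member, IDS, had an unadjusted p below 0.05, against 4.73% of all genes. The median difference of the members was 0.015, against 0.005 over all genes, with 22 above and 16 below control, against 50.2% and 48.9% of all genes. The median was 0.075 without the control array of experiment 2, 0.05 without the GRN163L array of experiment 2 and 0.005 without that of experiment 1. IDS, the sulfatase that starts the breakdown of heparan and dermatan sulfate, had 8.16 and 8.12 with GRN163L, against 8.57 and 9.15 in control (-0.72, SE 0.20, limma adjusted p = 0.877). The GRN163L arrays lay under both controls, which themselves differed by more than the GRN163L arrays did. A second probe set of IDS alone had 7.74 and 7.83 with GRN163L, against 7.79 and 8.42 in control, so the groups overlapped there. Furthest above control after IDUA (7.84 and 7.65 with GRN163L, 0.46) were LIPA and NPC2. LIPA had 8.26 and 8.67 with GRN163L, against 8.11 and 8.07 in control (0.375, SE 0.27). NPC2 had 8.75 and 8.79 with GRN163L, against 8.55 and 8.25 in control (0.37, SE 0.17). All 6 genes of lipid breakdown and transport had a higher mean with GRN163L, with a median of 0.205, which was 0.07 in experiment 1 and 0.34 in experiment 2.

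The combination against control asks what both agents do together. The cysteine proteases CTSH and CTSS fell, by 1.42 and 1.02 on the log2 scale, and no higher member passed the test in the main fit. Of 39 members, 2 were called, which is 5.13%, against 3.47% of all genes tested, and the 2 calls were both lower, the direction of 2.71% of all genes. At an unadjusted p below 0.05 there were 3 higher members (CTSA, TPP1 and IDUA) and 5 lower (CTSH, CTSS, FUCA1, IDS and TFE3), against 7.14% higher and 15.9% lower among all genes. With the experiment as a block, CTSA and IDUA were also called higher and IDS and TFE3 lower, where 11.0% of all genes were then called. The members' median was -0.075 and that of all genes -0.065. Above control were 16 members and below it 22, against 42.3% and 57.1% of all genes. A common median of the arrays moves this contrast by 0.175. The members' median then turned to 0.10 and that of all genes to 0.11. The count of called members was 0 without either control array, 1 without either GRN163L array or the combination array of experiment 1, and 4 without the combination array of experiment 2.

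CTSH, a cysteine protease with aminopeptidase activity, had 6.09 and 6.54 with both agents, 7.37 and 7.15 with LY2784544, 7.43 and 7.54 with GRN163L, against 7.72 and 7.75 in control. Each array with both agents lay under all 6 others. The fall against control was 1.42 on the log2 scale, with an SE of 0.19 (limma adjusted p = 0.00906). It was not called without the control array of experiment 1 (adjusted p = 0.0558) or that of experiment 2 (adjusted p = 0.0687).

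CTSS, the cysteine protease that cleaves the invariant chain of HLA class II molecules in antigen-presenting cells, had 6.40 and 6.80 with both agents, 7.41 and 7.56 with LY2784544, 7.28 and 7.46 with GRN163L, against 7.66 and 7.58 in control. Here too both arrays with both agents lay under all others, as they did in CTSB, CTSL, SMPD1, IDS and FUCA1. In GAA they lay above all others. How many of all genes tested had either pattern was not counted. CTSS fell by 1.02 on the log2 scale against control (SE 0.18, limma adjusted p = 0.0254). The call was lost without either control array, either GRN163L array or the combination array of experiment 1 (adjusted p = 0.058 to 0.128).

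Of markers of blood cell types, among them the erythroid and megakaryocytic ones of HEL cells, some moved in the same comparison and others did not. Of the tested markers, 40% on the lymphocyte list and 22.2% on the megakaryocyte list were called, against 3.47% of all genes. On the monocyte and erythroid lists 0% were called. The mean log2 signal of 11 monocyte and macrophage markers was 4.81 and 4.75 with both agents, against 4.68 and 4.80 in control, and none of the 6 that passed the filter was called. Of 9 lymphocyte markers measured, 5 passed the filter: the B cell genes CD79A (-1.84) and CD79B (-1.325) fell, and NKG7 (-0.875), CD2 (0.29) and CD8A (0.05) were not called. CD2, a T cell gene, had 6.50 and 7.01 with both agents and 6.47 and 6.46 in control, while CD3E, CD3G and MS4A1 lay under the filter level on every array. The lymphocyte list averaged 4.66 and 4.66 with both agents and 4.87 and 5.03 in control. Of 10 megakaryocyte markers, PPBP (3.135) and PF4 (1.915) rose, and the list averaged 9.24 and 9.41 with both agents, against 8.69 and 8.55 in control. The median difference of the 9 tested was 0.26, far below the values of PPBP and PF4, with 8 above control and 1 below. The 8 erythroid markers averaged 9.63 and 10.04 with both agents, against 10.47 and 10.20 in control. Their median difference was -0.165 and none was called. HBZ, an embryonic globin, differed most, with 5.20 and 6.25 with both agents and 8.42 and 9.54 in control (-3.255). KLF1 had 8.88 and 8.99 with both agents, against 9.51 and 9.04 in control. With LY2784544 alone, beside the fall of SCARB2, CD79A (-1.385) and CD79B (-1.02) fell and PPBP (2.52) rose. The part of these changes in the values of CTSH, CTSS and SCARB2 was not tested.

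Other members kept apart from control without a call. CTSA had 11.56 and 11.22 with both agents, against 10.60 and 10.74 in control (0.72, SE 0.19, limma adjusted p = 0.0717), and was called with a mean-variance trend in the moderation (limma adjusted p = 0.0436). IDUA had 8.59 and 7.92 with both agents, against 7.27 and 7.30 in control (0.97, SE 0.27, limma adjusted p = 0.0813). IDS had 7.99 on both arrays with both agents, against 8.57 and 9.15 in control (-0.87, SE 0.20, limma adjusted p = 0.0552). Its second probe set had 7.77 and 7.53 with both agents, against 7.79 and 8.42 in control. With the mean of its probe sets IDS was at -0.6625 (limma adjusted p = 0.112). These 3 genes and TFE3 were called with the experiment as a block, which gave 2 higher and 4 lower members in this comparison, where 11.0% of all genes were then called (limma adjusted p = 0.0338 for CTSA, 0.0241 for IDUA and 0.0316 for IDS).

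The labels name the experiment of each array, so that the block reflects the design. FUCA1, which removes fucose from glycoproteins, had 6.70 and 6.87 with both agents, against 7.09 and 7.30 in control (-0.41, SE 0.18, limma adjusted p = 0.217). LGMN, an asparagine-specific protease, had 5.84 and 6.17 with both agents, against 7.35 and 6.16 in control. Its difference of -0.75 came from experiment 1 (-1.51) and was 0.01 in experiment 2. GLA behaved in a like way, at -1.15 in experiment 1 and -0.19 in experiment 2. The other members were between -0.365 (CTSL) and 0.40 (TPP1), which had 10.11 and 9.85 with both agents, against 9.59 and 9.57 in control. MCOLN1 had 8.45 and 8.33 with both agents, against 7.88 and 8.13 in control (0.385). CTSD had 10.85 and 10.32 with both agents, against 10.10 and 10.29 in control (0.39, of which 0.75 in experiment 1 and 0.03 in experiment 2). LIPA had 8.19 and 8.78 with both agents, against 8.11 and 8.07 in control (0.395). GAA, the acid glucosidase of glycogen, lay near the filter level, with 4.89 and 4.54 with both agents and 4.51 and 4.35 in control.

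**Figure D3:**
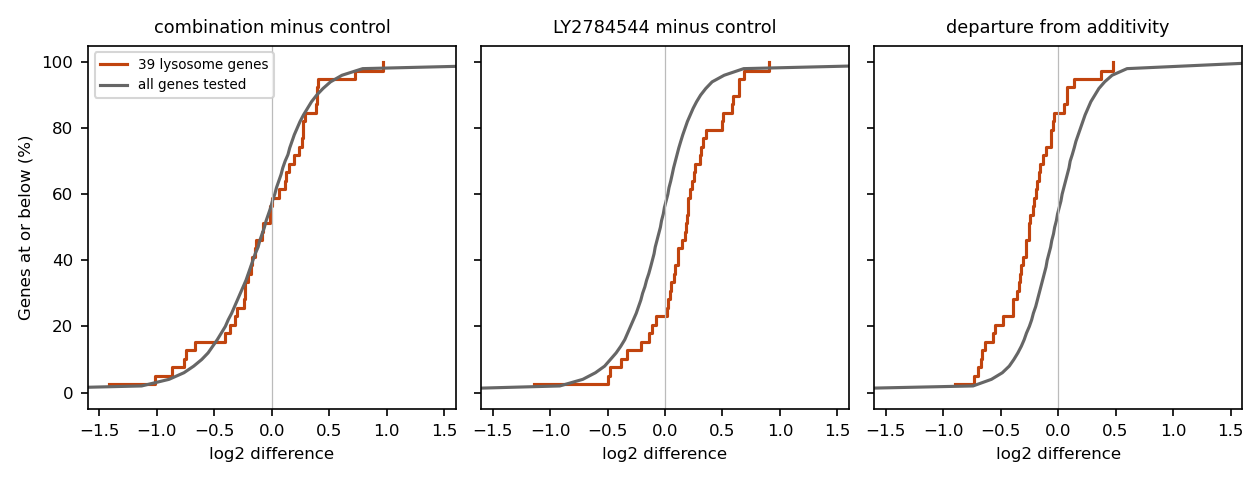
Share of genes (vertical axis, percent) at or below each log2 difference (horizontal axis) for the 39 tested lysosome genes (steps) and all 12570 genes tested (smooth line, drawn from percentiles). With both agents against control the curves nearly coincide (medians -0.075 and -0.065), with LY2784544 the lysosome curve lies to the right (0.18 and -0.04), and for the departure from additivity it lies to the left (-0.25 and -0.03).

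The combination was then set against each agent alone. Against LY2784544, 30 members had a lower mean with both agents and 9 a higher one, with a median of -0.255, against -0.02 over all genes, of which 52.7% were lower and 46.7% higher. Without the LY2784544 array of experiment 1 the median was -0.16. In both experiments separately 26 members were lower with both agents, against 38.7% of all genes. No member was called by limma (0.310% of all genes were), while 8 lower members and 1 higher had an unadjusted p below 0.05, against 8.22% and 5.27% of all genes. The lower members were CTSB, CTSH, CTSS, GUSB, MAN2B1, ARSB, FUCA1 and IDS. The higher one was SCARB2, at 4.91 and 4.85 with both agents and 4.18 and 3.94 with LY2784544 alone. With the experiment as a block, CTSH (-0.945, limma adjusted p = 0.0444) and CTSS (-0.885, limma adjusted p = 0.041) fell against LY2784544, where 1.60% of all genes were then called.

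Against GRN163L, CTSH fell by 1.17 on the log2 scale (SE 0.19, limma adjusted p = 0.0393), the only member called, which is 2.56% of the members, against 0.541% of all genes in either direction and 0.469% lower. The call was lost without either control array, either GRN163L array or the combination array of experiment 1 (adjusted p = 0.0719 to 0.292). It was also lost with a common median (limma adjusted p = 0.0722), which moves this contrast by 0.19. The median of the members against GRN163L was -0.135, with 13 higher and 26 lower, against 37.8% and 61.4% of all genes. With a common median the members' median turned to 0.055 and that of all genes to 0.105.

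The departure from additivity is the combination minus LY2784544 minus GRN163L plus control on the log2 scale, so that 0 means that the differences of the single agents add up. It was below 0 for 33 of 39 members, with a median of -0.25, where 54.1% of all genes lay below 0 and 45.1% above it, and their median was -0.03. Within experiment 1 it was -0.33 and within experiment 2 it was -0.22, and 27 members were below 0 in both experiments separately, against 32.1% of all genes. Lists of other lysosome genes, given further on, also lay mostly below 0. The share was 76.5% for V-ATPase genes, 73.7% for sorting genes and 73.3% for other membrane proteins. It was 80% for mTORC1 and TFEB regulators, 67.9% for fusion genes and 52.2% for other hydrolases. The medians of these lists lay between -0.185 (mTORC1 and TFEB regulators) and -0.005 (other hydrolases). No member was called by limma, nor was any of the 12570 genes (0% called). At an unadjusted p below 0.05 there were 5 members, all below 0, which is 12.8% of the members, where 3.69% of all genes passed in either direction and 2.45% below 0. With a common median the members' median was -0.163 and that of all genes 0.0575. The median lay between -0.305 and -0.17 when single arrays were left out, and was -0.17 without the LY2784544 array of experiment 1.

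**Figure D4:**
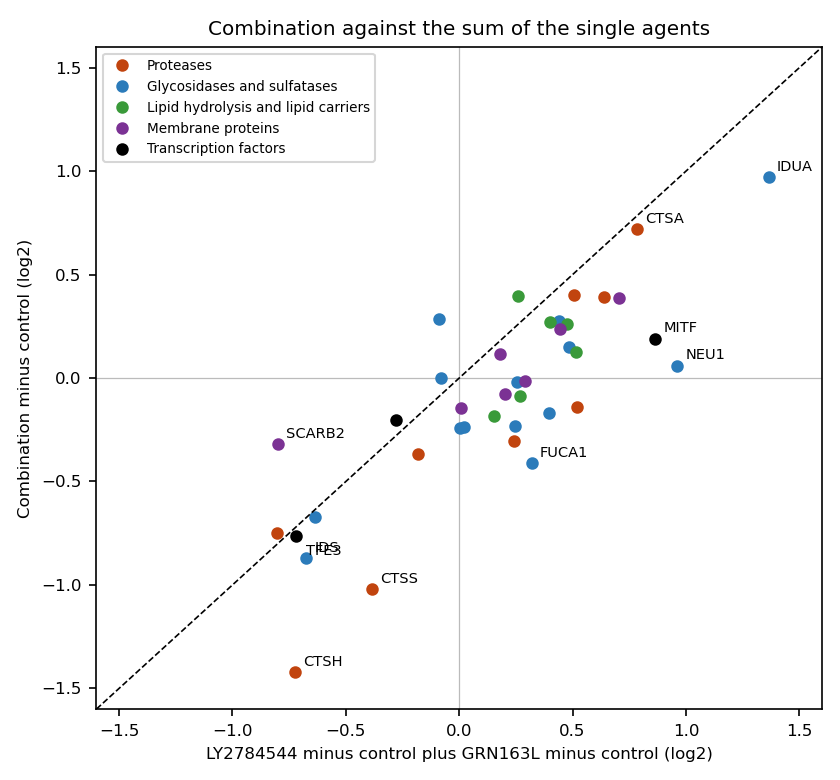
Combination minus control (vertical axis) against the sum of the differences of LY2784544 and GRN163L from control (horizontal axis), both in log2, for the 39 tested lysosome genes coloured by role. On the dashed line the single agents add up. The control arrays enter both axes. Most points, 33 of 39, lie under the line, among them NEU1, FUCA1, CTSH and CTSS, and SCARB2 lies furthest above it.

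The 5 members with an unadjusted p below 0.05 were NEU1 (-0.90, SE 0.36), FUCA1 (-0.73, SE 0.25), CTSH (-0.695, SE 0.26), CTSZ (-0.66, SE 0.24) and CTSS (-0.635, SE 0.25), each with a limma adjusted p of 0.999. NEU1 lay above control with either agent and had 8.54 and 8.01 with both agents, 9.11 and 8.51 with LY2784544, 8.77 and 8.39 with GRN163L, against 8.24 and 8.19 in control. FUCA1, whose arrays with both agents lay under all others, had 7.34 and 7.72 with LY2784544 alone and 7.21 and 7.15 with GRN163L alone. CTSZ, a carboxypeptidase, had 7.92 and 7.75 with both agents, 8.30 and 8.05 with LY2784544, 8.19 and 8.40 with GRN163L, against 8.05 and 7.90 in control. In NEU1, FUCA1 and CTSZ the sum of the single agents was above 0 (0.96, 0.32 and 0.52), while in CTSH and CTSS it was below 0 (-0.725 and -0.385). The 6 members above 0 were SCARB2 (0.48, SE 0.28), GAA (0.375, SE 0.25), LIPA (0.135, SE 0.38), GLB1 (0.08), TFEB (0.075) and LGMN (0.055). For CTSA the departure was -0.065 and for TPP1 -0.105, less than their SE of 0.27 and 0.24.

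Other genes of the lysosome were read from lists of its machinery. At an unadjusted p below 0.05 with both agents there were 4 of 17 V-ATPase genes, 6 of 19 sorting genes, 4 of 23 other hydrolases, 6 of 30 other membrane proteins, 4 of 25 mTORC1 and TFEB regulators and 4 of 28 fusion genes. These shares are 23.5%, 31.6%, 17.4%, 20%, 16% and 14.3%, against 23.1% of all genes tested. By limma, none of 17 subunits and accessory proteins of the V-ATPase, the pump that acidifies the lysosome, was called in a comparison with control, and their median was 0.04 with both agents, 0.12 with LY2784544 and 0.025 with GRN163L. ATP6V1G1 was at 0.51 and ATP6V0B at -0.56 with both agents. None of 19 tested genes of sorting to the lysosome, such as the mannose 6-phosphate receptors and adaptors, was called, with medians of -0.015 with both agents, 0.08 with LY2784544 and 0.03 with GRN163L. AP1M1, an adaptor subunit, was at -0.71 and LMAN1, a cargo receptor of the early secretory pathway, at -0.56 with both agents.

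Of 23 other hydrolases tested none was called, with medians of 0 with both agents, 0.005 with LY2784544 and 0.145 with GRN163L. SIAE, a sialate esterase, was at 1.195 with both agents (1.88 in experiment 1 and 0.51 in experiment 2), and DPP7, a dipeptidyl peptidase, at -0.45. Of 30 other membrane proteins none was called, with medians of 0.005 with both agents, 0.103 with LY2784544 and 0.043 with GRN163L. ABCA2, a lipid transporter, was at -0.86 with both agents and -1.04 with LY2784544. CLN8, on this list although it is a protein of the endoplasmic reticulum, was at 1.31 with both agents. It had 8.43 and 7.31 with both agents, against 6.76 and 6.36 in control.

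Of 25 genes of mTORC1 and of the regulation of TFEB none was called, with medians of 0.015 with both agents, 0.05 with LY2784544 and 0.08 with GRN163L. MLST8, a subunit of mTORC1, was at -0.445 and PPP3R1, a subunit of the phosphatase calcineurin, at -0.505 with both agents. Of 28 genes of lysosome fusion and of related organelles, LYST was the only call in a comparison with control, which is 3.57% of them with both agents, near the 3.47% of all genes. LYST, whose loss causes giant lysosomes in Chediak-Higashi syndrome, rose with both agents by 0.745 (SE 0.16, limma adjusted p = 0.0449), by 0.67 in experiment 1 and 0.82 in experiment 2.

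The experiments differed in the size of the response. With LY2784544, 24 of 39 members differed more from control in experiment 1 than in experiment 2, and the median absolute difference was 0.29 and 0.24, against 0.28 and 0.16 over all genes. With GRN163L, 14 members differed more in experiment 1, with 0.10 and 0.20, against 0.15 and 0.23 over all genes. The differences of CTSA, CTSD, IDUA, MCOLN1 and NEU1 with LY2784544 were each larger in experiment 1. That of MITF was larger in experiment 2, at 0.84 against 0.33.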

How the data were processed

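The deposited values are log2 signals, 1 for each of 33297 probe sets on each of the 8 arrays, made by the authors with RMA in Affymetrix Expression Console, per the submitters' processing notes. Versions, the genome build and whether all arrays were normalized together were not given in the sources used here. Per the labels, 150 ng of total RNA was labelled for each array. Array medians over all probe sets lay between 5.07 and 5.25. Over the tested genes they lay between 7.23 and 7.51. Arrays of cells given the JAK2 inhibitor, alone or in the combination, had 7.405 or less, and the other arrays 7.46 or more. Whether these medians differ by array scale or by a change in the transcripts was not tested. The common median was set on the tested genes.

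Probe sets were named with GEO's platform annotation, 19181 of them with exactly 1 gene, 2055 with several and 12061 with none. The probe set of highest mean stood for its gene. Genes with a mean under the 30th percentile (4.37) were left out. The 4 group means were estimated with limma 3.58.1 in R 4.3.3 with empirical Bayes moderation (4 residual and 4.65 prior degrees of freedom), and p-values were Benjamini-Hochberg adjusted within a contrast. The fit was tested on simulated data. The labels name the experiment of each array, so the replicate number pairs arrays. The main fit did not use this pairing. Deviations from group means correlated between arrays of an experiment with r of 0.103 to 0.674. The labels do not say whether the experiments used separate thaws, and the p-values cover only the spread among these cultures or their arrays. The 2 arrays in a group limit the precision.

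The members and lists were chosen with earlier results of these data known. Named members were those called in any contrast, TFEB, TFE3 and MITF, and the 3 furthest up and down in each comparison with control and in the departure from additivity. From each pathway list the genes called in a comparison with control were named (at most 3), otherwise the 2 with the smallest p. Other members are given to account for all of them. The second probe set of IDS was named after its values were seen. CTSZ among the members with array values was also named after its values were seen. So were the CTSA, GLB1, IDUA, NEU1 and NPC1 probe sets shared with other genes. The markers HBE1, ITGA2B, VWF, LYZ and those of lymphocytes other than CD79A and CD79B were likewise named after their values were seen. Alternatives were the experiment as a block, other filters, fits on the compared groups, a trend or robust moderation, a common median, quantile normalization, the mean of probe sets, array weights and leaving out each array.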

Additional observations from a re-analysis of the deposited data

How the results depend on the processing

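With the experiment as a replicate block, 6 members were called in the combination against control in place of 2, and 2 in the combination against LY2784544 in place of 0. The calls over all genes moved with them, to 1382 (11.0%) in place of 436 and to 201 (1.60%) in place of 39. A mean-variance trend gave 3 members for the combination against control, with CTSA added. The block changed no other count of called members. Fitting only the compared groups left 0 called members for LY2784544, 1 for the combination and 0 for the combination against GRN163L. A filter at the 50th percentile left 0 for LY2784544, since it removes SCARB2, and the medians were then -0.275 against LY2784544 and -0.15 against GRN163L. Without a filter the median of the combination against control was -0.0475. With a common median, 0 members were called for LY2784544 and 0 for the combination against GRN163L. The medians were then 0.283 for LY2784544, 0.10 for the combination against control, -0.183 against LY2784544, 0.055 against GRN163L and -0.163 for the departure from additivity. Quantile normalization gave 0.247, 0.0872, -0.208 and 0.0047 for the first 4 of these, and 0 members for the combination against GRN163L. The members' medians of the combination against control and against GRN163L thus changed sign with the scaling, while those of LY2784544 and of the departure kept theirs. A common median moves all genes by the same amount. The medians of all genes were then 0.0625 for LY2784544 and 0.11 for the combination against control. They were 0.0525 against LY2784544, 0.105 against GRN163L and 0.0575 for the departure. Leaving out single arrays gave 0 to 1 called members for LY2784544, 0 to 4 for the combination, 0 to 1 for the combination against GRN163L and 0 elsewhere. The medians ranged from 0.135 to 0.195 for LY2784544, 0.005 to 0.075 for GRN163L, -0.08 to -0.05 for the combination, -0.275 to -0.16 against LY2784544, -0.14 to -0.115 against GRN163L and -0.305 to -0.17 for the departure. Fewer arrays leave fewer degrees of freedom, and an array left alone in its group was taken to vary like the others. No called value of a named member changed sign in any alternative.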

Other observations

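Probe sets annotated to a member together with a neighbouring gene did not always follow the member's own probe set. A probe set of GLB1 and TMPPE lay above both control arrays on every treated array, and differed from control by 0.335 with GRN163L. It differed from control by 0.62 with both agents and 0.595 with LY2784544, while the probe set of GLB1, the lysosomal beta-galactosidase, alone differed by 0 and 0.08. A probe set of NPC1 and RMC1 differed by 0.36 with both agents, against -0.075 for NPC1 alone. The gene behind these signals is not settled by the annotation.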
